A study of Mus musculus with 20 samples.

Results

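Leucine, isoleucine and valine, the branched-chain amino acids, are taken up and broken down by a short shared pathway, and 7 genes of it were read in white matter of Zdhhc9 knockout and wild-type mice. The 7 genes are Slc7a5, Bcat1, Bcat2, Bckdha, Bckdhb, Dbt and Bckdk. They were chosen by gene symbol from the 46517 genes of the deposited table, as named steps of the pathway, with earlier results of these libraries known. Which measured values weighed in that choice is not recorded, so the knockout values of the 7 genes are given as a description and are not independent evidence. All 7 passed the filter on low counts in each fit.

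Zdhhc9 encodes a palmitoyl transferase, an enzyme that attaches a fatty acid to proteins, and the study sequenced polyadenylated RNA of 2 myelinated tracts. Zdhhc9 knockout optic nerve (KO_ON) had 5 libraries and wild-type optic nerve (WT_ON) had 4. Zdhhc9 knockout corpus callosum (KO_CCg) had 6 libraries and wild-type corpus callosum (WT_CCg) had 5. The sample labels call the genotype a knockout and the series text a knockdown. The labels used here do not give the allele, the cells that carry it, age, sex or strain. Each library has a number in its name, and nothing says that equal numbers mean the same animal, so p-values measure only the spread between libraries, which may be technical.

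The libraries held 15401130 to 26095622 estimated counts each. Levels are given as CPM, counts scaled to a common library size, with trimmed mean of M-values (TMM) factors. Between tracts, a gene is said to have risen or fallen only at an edgeR adjusted p under 0.05. Zdhhc9 itself was 35.1 to 51.4 CPM in KO_ON against 115 to 150 CPM in WT_ON, and 40.8 to 56.0 CPM in KO_CCg against 153 to 201 CPM in WT_CCg, so no library went against its genotype label. The summed level of 10 mature oligodendrocyte markers was at least 32300 CPM in every library, and the 10 neuron markers summed to 225 to 446 CPM in optic nerve and 1100 to 4330 CPM in callosum. Fibroblast and meningeal markers, 8 genes, summed to 3120 to 5430 CPM in KO_ON and 2840 to 4810 CPM in WT_ON, against 37.1 to 92.9 CPM in KO_CCg and 44.3 to 90.0 CPM in WT_CCg. The 4 callosum libraries with 2-character numbers and the 7 with longer numbers differed in some members, and what the number format stands for is not stated. No optic nerve library has a 2-character number, and number format was not a covariate in the tract comparisons.

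Slc7a5 is the light chain of a transporter of large neutral amino acids, which pairs with the heavy chain Slc3a2 and at the blood-brain barrier carries leucine into the brain. Inside the cell an aminotransferase moves the amino group to alpha-ketoglutarate, which makes glutamate and a branched-chain keto acid. Bcat1 is the cytosolic form of this enzyme and Bcat2 the mitochondrial form, and in rat brain the cytosolic form has been found mainly in neurons and the mitochondrial form in astrocytes. The keto acids are then committed to oxidation by the mitochondrial branched-chain keto acid dehydrogenase complex, whose E1 subunits are Bckdha and Bckdhb, whose E2 core is Dbt and whose E3 subunit is Dld. The kinase Bckdk switches the complex off by phosphorylating E1, and the phosphatase Ppm1k switches it on.

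The promoters of the 2 aminotransferase genes are shown because these genes differed in opposite ways between the tracts in knockout mice. They come from RefSeq on GRCm38.p6, the assembly of mm10, and run from 250 bases before to 50 bases after a transcript start. RefSeq windows were found for 5 of the 7 genes, among them 2 for Bcat1 on the minus strand, at chr6:145076108-145076407 and chr6:145048763-145049062, and 2 for Bcat2 on the plus strand, at chr7:45569903-45570202 and chr7:45571029-45571328. Of the Bcat2 windows the first, which holds an annotated GENCODE start, is shown, and the second holds none. Capitals mark sequence matches to the TATA box, from base 32, and to the CCAAT box on the reverse strand, from base 198. Both lie in the outer Bcat1 window, whose first 250 bases come before the start. Whether these matches act as promoter elements was not tested.
Bcat1 outer start: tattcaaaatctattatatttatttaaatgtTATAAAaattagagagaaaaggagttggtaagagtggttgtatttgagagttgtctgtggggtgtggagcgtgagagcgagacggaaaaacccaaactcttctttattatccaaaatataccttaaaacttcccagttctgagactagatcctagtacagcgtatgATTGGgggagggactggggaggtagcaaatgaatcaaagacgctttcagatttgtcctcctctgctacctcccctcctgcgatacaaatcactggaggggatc
Bcat1 inner start: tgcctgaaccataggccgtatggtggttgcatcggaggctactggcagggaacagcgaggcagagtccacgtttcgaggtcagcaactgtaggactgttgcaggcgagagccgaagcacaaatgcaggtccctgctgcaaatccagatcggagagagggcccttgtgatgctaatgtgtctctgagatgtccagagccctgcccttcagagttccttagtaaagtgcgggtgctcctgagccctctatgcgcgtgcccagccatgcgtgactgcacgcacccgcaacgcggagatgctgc
Bcat2: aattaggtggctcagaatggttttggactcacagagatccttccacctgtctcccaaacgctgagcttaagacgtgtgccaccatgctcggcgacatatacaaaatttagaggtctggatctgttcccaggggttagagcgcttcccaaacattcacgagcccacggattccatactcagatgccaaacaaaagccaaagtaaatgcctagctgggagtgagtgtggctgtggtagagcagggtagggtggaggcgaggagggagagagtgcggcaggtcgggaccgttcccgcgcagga
Both strands were searched for 5 motifs, and the share of all 32851 mouse promoter windows of that length with a match is given for each. The TATA box (TATAAA) was in 13.6% of windows and the CCAAT box (its name is its letters) in 37.4%. For the E-box, searched as CACGTG, the share was 7.15%. For the GC box, searched as GGGCGG, it was 35.7%. For the amino acid response element, searched as TGATGNAAT, it was 0.965%. Only the outer Bcat1 window of these 3 held any of the motifs. The counts are per gene and do not separate the 2 Bcat1 starts.

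Positions are those of GENCODE M21 in the genome build mm10, and identifiers carry the version of the count table. M21 gives a later version for every member except Slc7a5, so the counts rest on another annotation version than the positions and transcript lengths. Slc7a5 (ENSMUSG00000040010.10) lies on chromosome 8 from 121881150 to 121907694 on the minus strand. Bcat1 (ENSMUSG00000030268.16) lies on chromosome 6 from 144993835 to 145076184 on the minus strand. Bcat2 (ENSMUSG00000030826.16) lies on chromosome 7 from 45570153 to 45589711 on the plus strand. Bckdha (ENSMUSG00000060376.6) lies on chromosome 7 from 25629946 to 25658981 on the minus strand. Bckdhb (ENSMUSG00000032263.13) lies on chromosome 9 from 83925145 to 84124240 on the plus strand. Dbt (ENSMUSG00000000340.9) lies on chromosome 3 from 116513070 to 116549981, and Bckdk (ENSMUSG00000030802.13) on chromosome 7 from 127904082 to 127910221, both on the plus strand. All 7 are protein-coding, and all except Bckdk overlap another annotated gene, such as the antisense genes Gm26666 and Gm15687 at Bcat1 and 0610005C13Rik at Bcat2. These overlaps are of whole gene spans, introns included, and shared transcript sequence was not checked. The kit marks strand, but whether the counting used it is not given in the sources used here. Reads from any sequence shared by a gene and its antisense partner may therefore be counted for either.

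**Figure D1:**
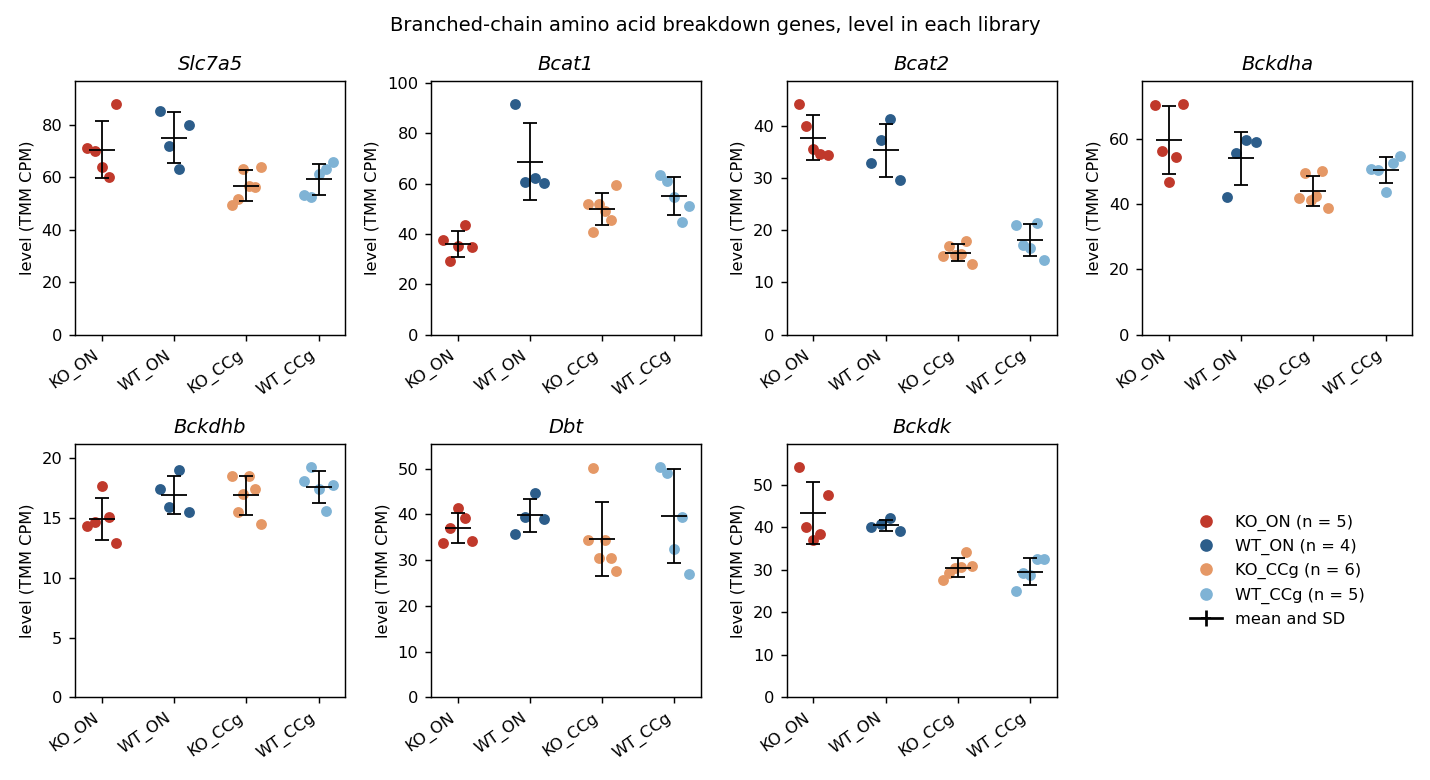
Level of each of the 7 genes in every library, in TMM-scaled CPM on a linear axis from 0, by group (KO_ON, WT_ON, KO_CCg, WT_CCg); points are libraries and bars the mean and SD. Bcat1 lies between 29.2 and 43.5 CPM in KO_ON, below all 4 WT_ON libraries, and Bcat2 and Bckdk lie higher in optic nerve than in callosum.

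Slc7a5 mRNA rose in optic nerve relative to callosum in both genotypes, and passed no test between genotypes. It was 71.2, 70.0, 63.9, 60.0 and 88.0 CPM in the KO_ON libraries, against 85.2, 72.1, 63.3 and 80.2 CPM in WT_ON. In KO_CCg it had a lowest, median and highest level of 49.4, 56.5 and 63.8 CPM, against 53.4, 52.4, 61.3, 63.2 and 65.8 CPM in WT_CCg. Knockout and wild-type libraries overlapped in both tracts, and optic nerve and callosum overlapped as well. The log2 fold change of KO_ON over WT_ON was -0.11 (SE 0.117, edgeR adjusted p = 0.882), and that of KO_CCg over WT_CCg was -0.07 (SE 0.0959, adjusted p = 0.771). In the optic nerve the level was 0.31 higher on the log2 scale in KO_ON than in KO_CCg (SE 0.105, adjusted p = 0.0137) and 0.34 higher in WT_ON than in WT_CCg (SE 0.116, adjusted p = 0.0176).

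The tract difference of Slc7a5 was close to the threshold. The knockout comparison gave an adjusted p of 0.0771 without KO_CCg_27, 0.0618 without KO_ON_719856 and 0.0867 with scaling by column totals, and the wild-type comparison gave 0.0735 without WT_ON_700858. Within the callosum the number format divided the levels without overlap: 49.4 to 51.6 CPM in KO_CCg and 52.4 to 53.4 CPM in WT_CCg with 2-character numbers, against 56.3 to 63.8 CPM in KO_CCg and 61.3 to 65.8 CPM in WT_CCg with longer ones. Only callosum holds 2-character numbers, so in the tract difference of Slc7a5 number format and tract cannot be fully told apart. Brain endothelial markers, which include transporters of the blood-brain barrier, summed to 857 to 1110 CPM in KO_ON and 981 to 1030 CPM in WT_ON, against 432 to 539 CPM in KO_CCg and 448 to 591 CPM in WT_CCg, and all 10 rose in optic nerve in both genotypes. Their part in the Slc7a5 result was not tested. In these bulk samples fewer cells of a type and less RNA per cell cannot be told apart. The partner chain Slc3a2 averaged 185 ± 23.8 CPM in KO_ON and 172 ± 14.4 CPM in WT_ON, against 97.6 ± 9.81 CPM in KO_CCg and 110 ± 6.82 CPM in WT_CCg (SD, n = 5, 4, 6 and 5). Slc3a2 rose in optic nerve by 0.92 on the log2 scale between KO_ON and KO_CCg (SE 0.0892, adjusted p = 2.56e-08) and by 0.66 between WT_ON and WT_CCg (SE 0.0985, adjusted p = 1.27e-05).

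Bcat1 mRNA was 51.9% of the wild-type level by the fitted fold change in knockout optic nerve, and the 2 groups did not overlap. It was 37.5, 29.2, 35.4, 43.5 and 34.8 CPM in the KO_ON libraries, against 91.7, 60.9, 62.1 and 60.3 CPM in WT_ON. Every KO_ON library lay below every WT_ON library, and WT_ON_700858 lay well above the other 3 of WT_ON. The log2 fold change of KO_ON over WT_ON was -0.95 (SE 0.148, 95% interval -1.27 to -0.62). Its unadjusted p was 4.47e-05 and its edgeR adjusted p over 15556 genes was 0.232, which did not pass the threshold of 0.05. Without WT_ON_700858 the log2 fold change was -0.78 (adjusted p = 0.265), and the range over leaving out each library was -1.03 to -0.78. Without the 2 KO_ON libraries whose number holds a letter it was -0.865 (adjusted p = 1).

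The call on Bcat1 in optic nerve depended on the tool. DESeq2 gave an adjusted p of 1.17e-05, and edgeR fitted to all 20 libraries in 4 groups gave 0.0133 with a log2 fold change of -0.93, while limma-voom with quality weights gave 0.102. Of all genes tested, 0.0129% passed in edgeR, 0.225% in DESeq2, 0.0129% in limma-voom and 0.0182% in the fit of all 20 libraries. Bcat1 was the only member of the 7 whose optic nerve groups did not overlap, against 2.05% of all genes, and the only member with an unadjusted p under 0.05, against 5.48% of all genes. The summed markers of each of the 8 cell types overlapped between KO_ON and WT_ON: neuron markers were 225 to 446 CPM in KO_ON and 257 to 417 CPM in WT_ON, and mature oligodendrocyte markers 58100 to 82400 CPM in KO_ON and 74900 to 90700 CPM in WT_ON. Of the neuron markers 8 of 10, and of the oligodendrocyte markers 3 of 10, had a positive log2 fold change in KO_ON, and none passed the test in edgeR, where 2 neuron and 1 oligodendrocyte marker had an unadjusted p under 0.05. Their part in the Bcat1 value was not tested.

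In callosum Bcat1 had a lowest, median and highest level of 40.9, 50.6 and 59.6 CPM in KO_CCg, against 63.3, 61.2, 54.7, 44.7 and 51.1 CPM in WT_CCg. These groups overlapped. The log2 fold change was -0.15 (SE 0.113, 95% interval -0.39 to 0.097, edgeR adjusted p = 0.592). Within number formats it was -0.38 among the 2-character numbers and 0.022 among the longer ones, so the sign was not the same in both. The knockout effect was 0.79 lower on the log2 scale in optic nerve than in callosum (SE 0.192, 95% interval -1.19 to -0.39, unadjusted p = 5.48e-04). Its edgeR adjusted p was 0.725, so the difference between tracts was not called, and without WT_ON_700858 the value was -0.62.

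Between tracts Bcat1 was called in knockout and not in wild-type mice, and the difference of these values, which equals the difference of knockout effects just given, was not called. In knockout mice it fell in optic nerve, by 0.47 on the log2 scale relative to callosum (SE 0.13, edgeR adjusted p = 0.00379), which is 0.723 times the KO_CCg level. In wild-type mice the log2 fold change of WT_ON over WT_CCg was 0.32 (SE 0.142, adjusted p = 0.0633). That wild-type value changed with single libraries and with the filter: it was 0.15 without WT_ON_700858, and the adjusted p was 0.034 without WT_ON_719857, 0.0377 without WT_ON_701297, 0.041 without WT_CCg_28, 0.0488 without KO_CCg_719856 and 0.0406 with a filter at 1 CPM. Neuron markers fell in optic nerve as well, 10 of 10 in KO_ON and 9 of 10 in WT_ON, and their part in the tract values of Bcat1 was not tested.

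Bcat2, the mitochondrial aminotransferase, was the member that differed most between tracts by fold, and it rose in optic nerve in both genotypes. It was 44.1, 40.0, 35.5, 34.5 and 34.4 CPM in KO_ON and 32.9, 37.3, 41.2 and 29.6 CPM in WT_ON. In callosum it had a lowest, median and highest level of 13.6, 15.3 and 18.0 CPM in KO_CCg, and 20.9, 17.1, 16.5, 21.4 and 14.3 CPM in WT_CCg. Every optic nerve library lay above every callosum library of either genotype, while the genotypes overlapped within each tract. The share of all genes that separate the tracts in this way was not counted. The level of Bcat2 was 2.41-fold higher in KO_ON than in KO_CCg (log2 fold change 1.27, SE 0.114, edgeR adjusted p = 9.03e-09). It was 1.96-fold higher in WT_ON than in WT_CCg (log2 fold change 0.97, SE 0.126, adjusted p = 2.14e-06).

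Between genotypes the log2 fold change of Bcat2 was 0.082 in optic nerve (SE 0.110, edgeR adjusted p = 0.91) and -0.21 in callosum (SE 0.119, adjusted p = 0.493). Astrocyte markers, 8 genes, summed to 8440 to 11800 CPM in KO_ON and 8290 to 11000 CPM in WT_ON, against 3440 to 4540 CPM in KO_CCg and 3840 to 4770 CPM in WT_CCg. Of them 4 rose and 2 fell in KO_ON relative to KO_CCg, and 3 rose and 2 fell in WT_ON relative to WT_CCg. By sign alone 6 were positive and 2 negative in each of these comparisons. Most of the astrocyte sum in optic nerve was Gfap, with a mean of 7150 CPM in KO_ON and 6950 CPM in WT_ON. The Gfap mean was 604 CPM in KO_CCg and 895 CPM in WT_CCg. Slc1a2 went the other way, at 271 CPM in KO_ON and 301 CPM in WT_ON, against 1880 CPM in KO_CCg and 1570 CPM in WT_CCg. The sums therefore do not stand for all 8 genes alike. Microglia markers, 8 genes, all rose in optic nerve in both genotypes, with sums of 879 to 1390 CPM in KO_ON and 969 to 1140 CPM in WT_ON, against 363 to 434 CPM in KO_CCg and 458 to 542 CPM in WT_CCg. Pericyte and smooth muscle markers rose as well, 5 of 7 in KO_ON and 6 of 7 in WT_ON. The part of these cells in the Bcat2 result was not tested.

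The balance of the 2 aminotransferases in counts restates the values of the 2 genes and adds no separate result. Between KO_ON and WT_ON its shift was mostly that of Bcat1, with log2 fold changes of -0.947 for Bcat1 and 0.082 for Bcat2. The ratio of Bcat1 to Bcat2 counts was 0.851, 0.729, 0.996, 1.26 and 1.01 in KO_ON and 2.79, 1.63, 1.51 and 2.04 in WT_ON. It was 2.43 to 4.39 with a median of 3.3 in KO_CCg, and 3.03, 3.58, 3.31, 2.09 and 3.57 in WT_CCg. All 5 KO_ON ratios lay below every other library. Per kilobase of the median protein-coding transcript, the mean Bcat1 level was 14.1 CPM in KO_ON, 26.9 in WT_ON, 19.5 in KO_CCg and 21.5 in WT_CCg, and the mean Bcat2 level was 21.8, 20.4, 9.09 and 10.4 CPM in the same groups. With the longest transcripts as lengths Bcat1 was 4.61 CPM per kilobase in KO_ON, 8.78 in WT_ON, 6.37 in KO_CCg and 7.02 in WT_CCg, against 18.1, 16.9, 7.54 and 8.65 for Bcat2. In WT_ON, KO_CCg and WT_CCg which of the 2 genes is higher therefore depends on the transcript lengths used. In KO_ON Bcat2 was the higher with the median and with the longest transcripts.

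**Figure D2:**
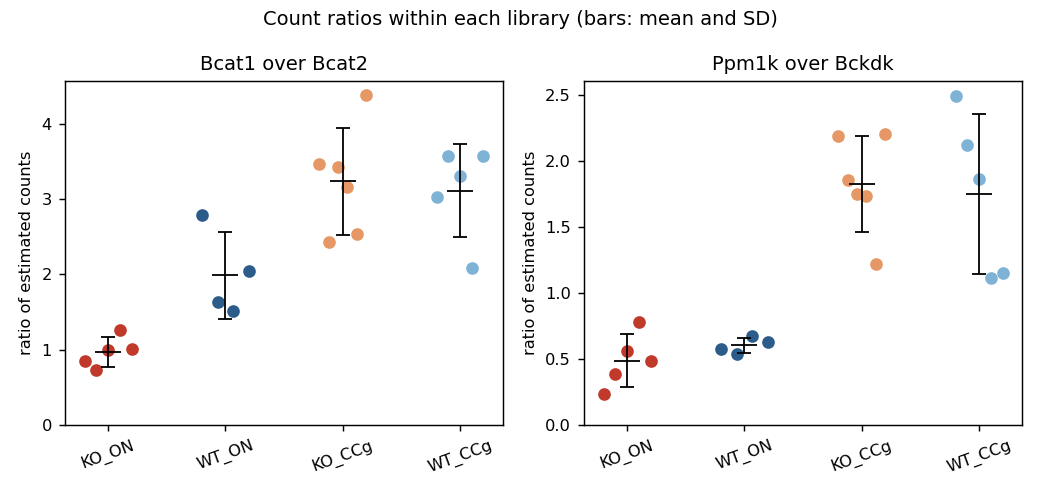
Ratios of counts in each library by group (KO_ON, WT_ON, KO_CCg, WT_CCg), for Bcat1 over Bcat2 (left) and Ppm1k over Bckdk (right); points are libraries and bars the mean and SD, on linear axes from 0. The Bcat1 to Bcat2 ratio is at most 1.26 in KO_ON and at least 1.51 in WT_ON.

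The E1 alpha subunit Bckdha rose in optic nerve relative to callosum in knockout mice, and in wild-type mice the same comparison did not pass the test. It was 70.2, 56.2, 46.7, 54.5 and 70.6 CPM in KO_ON and 42.2, 55.5, 59.6 and 59.0 CPM in WT_ON. In callosum it had a lowest, median and highest level of 38.9, 42.2 and 50.0 CPM in KO_CCg, and 50.6, 50.5, 43.8, 52.6 and 54.7 CPM in WT_CCg. The groups overlapped in every comparison. The log2 fold change was 0.44 for KO_ON over KO_CCg (SE 0.114, edgeR adjusted p = 0.00221) and 0.10 for WT_ON over WT_CCg (SE 0.126, adjusted p = 0.538). The difference of the knockout effect between tracts, which is also the difference of these 2 values, was 0.34 (SE 0.17, adjusted p = 0.74).

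Between genotypes the log2 fold change of Bckdha was 0.12 in optic nerve (SE 0.134, edgeR adjusted p = 0.889) and -0.21 in callosum (SE 0.093, unadjusted p = 0.0459, adjusted p = 0.42). It was the only member with an unadjusted p under 0.05 in callosum, against 11.7% of all genes. No member was called there by edgeR or by DESeq2, which called 0.0387% and 1.12% of all genes. In limma-voom with quality weights, which called 18.0% of all genes in callosum, Bckdha was -0.28 (adjusted p = 0.0327). No member had groups without overlap in callosum, against 0.889% of all genes. Among the cell type markers, all 10 neuron markers had a positive and all 10 mature oligodendrocyte markers a negative log2 fold change in KO_CCg, with medians of 0.65 and -0.50. None passed the test in edgeR, and 4 neuron and 8 oligodendrocyte markers had an unadjusted p under 0.05. Neuron markers summed to 1260 to 4330 CPM in KO_CCg and 1100 to 3070 CPM in WT_CCg. Oligodendrocyte markers summed to 32300 to 62800 CPM in KO_CCg and 51300 to 85400 CPM in WT_CCg, and their part in the callosum values was not tested. The mean neuron marker level was a covariate in some alternative fits of callosum. Over all alternatives the log2 fold change there was -0.277 to -0.0979 for Bckdha and -0.264 to -0.00212 for Bcat2.

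Bckdhb, the E1 beta subunit, was not called in any of the 5 comparisons. It ranged from 12.9 to 17.7 CPM in KO_ON, 15.5 to 19.0 CPM in WT_ON, 14.5 to 18.5 CPM in KO_CCg and 15.6 to 19.3 CPM in WT_CCg. Its log2 fold change was -0.19 for KO_ON over WT_ON (SE 0.117, edgeR adjusted p = 0.845), -0.071 for KO_CCg over WT_CCg (SE 0.0929, adjusted p = 0.763) and -0.058 for WT_ON over WT_CCg (SE 0.104, adjusted p = 0.671). For KO_ON over KO_CCg it was -0.18 (SE 0.094, adjusted p = 0.109), and this became a call without KO_CCg_719856 (adjusted p = 0.0414), without KO_ON_693452 (adjusted p = 0.0289), with column totals (adjusted p = 0.0292) and in limma-voom (adjusted p = 0.0413). Per kilobase of the median transcript, Bckdha averaged 31.4, 28.5, 23.2 and 26.5 CPM and Bckdhb 10.1, 11.5, 11.5 and 12 CPM in KO_ON, WT_ON, KO_CCg and WT_CCg, so the alpha subunit's mRNA was the higher of the 2 in each group on this scale.

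Dbt, the E2 core, was likewise not called in any of them, and its spread in callosum was wide. It was 33.7, 37.0, 41.3, 39.1 and 34.1 CPM in KO_ON and 35.8, 39.5, 44.7 and 39.0 CPM in WT_ON. In callosum the number format went with the level: it was 34.4 and 50.2 CPM in KO_CCg and 50.4 and 49.1 CPM in WT_CCg with 2-character numbers, against 27.7 to 34.4 CPM in KO_CCg and 26.9 to 39.5 CPM in WT_CCg with longer ones. The log2 fold change was -0.12 for KO_ON over WT_ON (SE 0.0997, edgeR adjusted p = 0.86) and -0.21 for KO_CCg over WT_CCg (SE 0.187, adjusted p = 0.652). In callosum it was 0.084 when the fit held the mean neuron marker level constant. Between tracts it was 0.10 in knockout (SE 0.156, adjusted p = 0.59) and 0.0051 in wild-type mice (SE 0.172, adjusted p = 0.983). The shared E3 subunit Dld, which also serves other dehydrogenase complexes, fell in KO_ON relative to KO_CCg by 0.31 on the log2 scale (SE 0.0986, adjusted p = 0.0106) and was -0.027 in WT_ON over WT_CCg (SE 0.109, adjusted p = 0.854).

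The 2 regulators of the complex differed between tracts in opposite directions. The kinase Bckdk was 54.3, 40.0, 37.1, 38.5 and 47.6 CPM in KO_ON and 40.0, 40.8, 42.2 and 39.2 CPM in WT_ON. In callosum it had a lowest, median and highest level of 27.6, 30.7 and 34.2 CPM in KO_CCg, and 25.1, 29.3, 28.7, 32.5 and 32.5 CPM in WT_CCg. All optic nerve libraries lay above all callosum libraries. The share of all genes that separate the tracts in this way was not counted. Bckdk rose in optic nerve by 0.51 on the log2 scale in knockout (SE 0.0951, edgeR adjusted p = 1.01e-04) and by 0.45 in wild-type mice (SE 0.105, adjusted p = 0.00121). Between genotypes it was 0.082 in optic nerve (SE 0.104, adjusted p = 0.906) and 0.034 in callosum (SE 0.0912, adjusted p = 0.888). All 8 fibroblast and meningeal markers rose in optic nerve in both genotypes, and their part in the Bckdk result was not tested.

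The phosphatase Ppm1k averaged 20.3 ± 6.75 CPM in KO_ON and 24.4 ± 2.74 CPM in WT_ON, against 55.2 ± 8.72 CPM in KO_CCg and 50.3 ± 13.0 CPM in WT_CCg (SD, n = 5, 4, 6 and 5). It fell in optic nerve by 1.44 on the log2 scale in knockout (SE 0.199, edgeR adjusted p = 2.75e-06) and by 1.04 in wild-type mice (SE 0.217, adjusted p = 4.37e-04). The ratio of Ppm1k to Bckdk counts was 0.231 to 0.776 in KO_ON and 0.539 to 0.669 in WT_ON, against 1.22 to 2.2 in KO_CCg and 1.11 to 2.49 in WT_CCg, with no overlap between tracts. How often ratios of other gene pairs separate the tracts was not counted. Between genotypes the log2 fold change of Ppm1k was -0.28 in optic nerve (SE 0.216, adjusted p = 0.847) and 0.13 in callosum (SE 0.168, adjusted p = 0.768). Of the 10 neuron markers, 10 fell in KO_ON relative to KO_CCg and 9 fell in WT_ON relative to WT_CCg, and their part in the Ppm1k result was not tested.

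**Figure D3:**
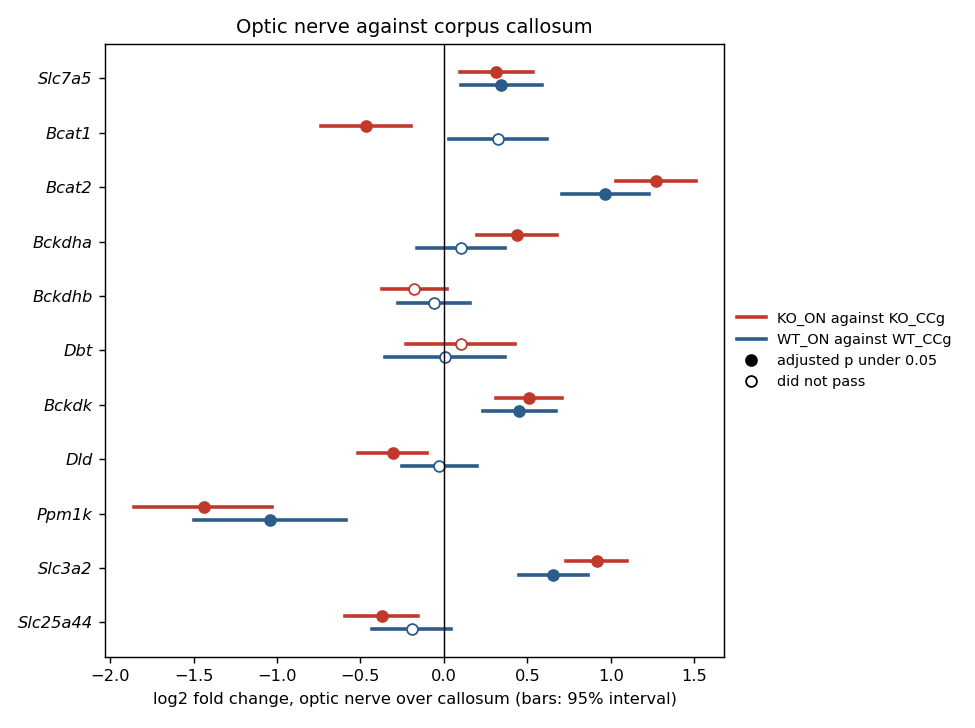
Log2 fold change of optic nerve over callosum for each gene, in knockout and in wild-type mice, as points with 95% intervals; filled points have an edgeR adjusted p under 0.05. Bcat2 and Bckdk lie to the higher side in both genotypes, and Bcat1 is -0.47 in knockout against 0.32 in wild-type mice.

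Over the 7 members, 4 were called higher and 1 lower in KO_ON than in KO_CCg, where 31.9% of all genes were called higher and 31.0% lower. In WT_ON against WT_CCg 3 were called higher and 0 lower, where 25.3% of all genes were called higher and 26.0% lower by edgeR. The only negative value there, that of Bckdhb, was far from the threshold. The median log2 fold change of the members was 0.313 in knockout and 0.324 in wild-type mice, against -0.000852 and -0.0262 over all genes. For the genotype the members' median was -0.112 in optic nerve and -0.148 in callosum, against 0.0119 and -0.0134 over all genes. These medians describe the 7 members and do not set them apart. Per kilobase of the median transcript the order of the mean levels in WT_ON was Bckdha at 28.5 CPM, Bcat1 at 26.9, Bckdk at 22.6, Slc7a5 at 21.4, Bcat2 at 20.4, Dbt at 12 and Bckdhb at 11.5. With the longest transcripts Bcat1 was 8.78 and Bckdk 11.9 CPM per kilobase, so neighbours in that order are not fixed by these data.

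**Figure D4:**
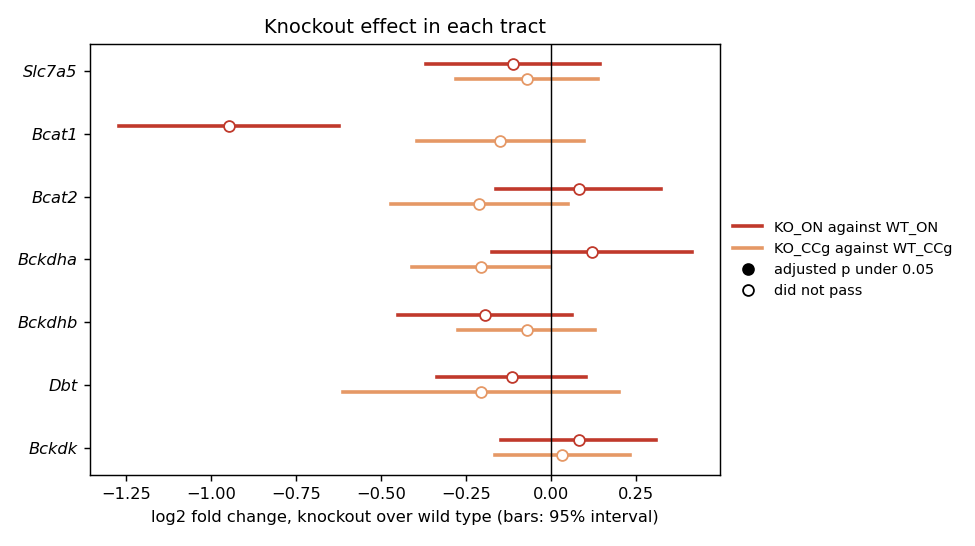
Log2 fold change of knockout over wild type for each gene in optic nerve and in callosum, as points with 95% intervals; open points did not pass an edgeR adjusted p of 0.05. Bcat1 in optic nerve, at -0.95 with an interval of -1.27 to -0.62, is the value farthest from 0.

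In edgeR's fit of each tract alone no member was called between genotypes, and in its fit of all 20 libraries Bcat1 was called in optic nerve and no member in callosum. Across all genes the fits of each tract called 2 of 15556 in optic nerve and 6 of 15519 in callosum. In callosum those 6 were 2 higher and 4 lower, and with scaling by column totals 2 higher and 2 lower. The difference of the knockout effect between tracts called no member and no gene in edgeR, DESeq2 or limma-voom, 0% of 16440 in each, and at an unadjusted p under 0.05 it held 1 member, Bcat1, against 6.83% of all genes.

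Genes of the later steps were counted by branch, and the branches were not tested against each other. The shares of all genes called are those given for the members, 31.9% higher and 31.0% lower in knockout and 25.3% higher and 26.0% lower in wild-type mice. Of 11 genes of the isoleucine and valine branches, 9 rose and 0 fell in KO_ON relative to KO_CCg, and 7 rose and 0 fell in WT_ON relative to WT_CCg, with median log2 fold changes of 0.435 and 0.318. Acadsb, an acyl-CoA dehydrogenase of the isoleucine branch, rose by 0.65 in wild-type optic nerve (SE 0.0867, edgeR adjusted p = 3.21e-06), and Hadh and Ehhadh, which act in fatty acid oxidation as well, by 0.52 and 0.55. Hadha and Hadhb, which are among the 11 too, also act in fatty acid oxidation. The counts of this list are therefore not of enzymes of the isoleucine and valine branches alone. Of 9 genes from propionyl-CoA to succinyl-CoA, 6 rose and 2 fell in KO_ON and 5 rose and 0 fell in WT_ON. Pcca, the alpha subunit of propionyl-CoA carboxylase, rose by 0.70 in WT_ON (SE 0.116, adjusted p = 4.09e-05). Of 7 genes of the leucine branch, 1 rose and 2 fell in KO_ON, and 0 rose and 2 fell in WT_ON, where Auh fell by 0.24 (adjusted p = 0.0289) and Oxct1, which activates ketone bodies, fell by 0.22 (adjusted p = 0.0237). Between genotypes edgeR called no gene of these 3 lists in either tract, and at an unadjusted p under 0.05 they held 0 genes in optic nerve and, in callosum, 4 genes of the isoleucine and valine branches alone, where 11.7% of all genes reached that p. In callosum 10 of the 11 isoleucine and valine genes had a negative log2 fold change, with a median of -0.178, among them Hsd17b10 at -0.32 (SE 0.0959, adjusted p = 0.298) and Echs1 at -0.28 (SE 0.11, adjusted p = 0.397). The part of the cell type markers whose KO_CCg values stand beside Bckdha was not tested for these genes.

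Of 8 other transport genes, 3 rose and 4 fell in KO_ON relative to KO_CCg, and 3 rose and 2 fell in WT_ON relative to WT_CCg. Slc43a1, a neutral amino acid transporter, rose by 1.73 on the log2 scale in WT_ON (SE 0.395, edgeR adjusted p = 0.00102). Its level was low, with a mean of 0.467 CPM and 4 to 17 counts in WT_CCg, and a mean of 1.55 CPM in WT_ON. Slc6a15, a transporter of branched-chain amino acids and proline found mainly in neurons, fell by 2.31 in WT_ON (SE 0.332, adjusted p = 7.46e-06). Slc25a44, which carries branched-chain amino acids into mitochondria, fell by 0.37 in KO_ON relative to KO_CCg (SE 0.104, adjusted p = 0.00375) and was -0.19 in WT_ON over WT_CCg (SE 0.115, adjusted p = 0.168). None of the 8 was called between genotypes by edgeR, and 0 had an unadjusted p under 0.05.

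The members varied among libraries in different ways once the mean of each of the 4 groups was taken out. Over the 20 libraries Pearson's r of these residual log2 CPM values was -0.683 for Slc7a5 with Dbt, 0.615 for Bckdha with Bckdk, -0.524 for Bcat1 with Bckdha and -0.306 for Bcat1 with Bcat2. Among 13520 genes, those most like Bcat1 were Zbtb16 (r = 0.772), Ube2j1 (r = 0.756) and Tceal1 (r = 0.731). Bcat2 was most like Cxcl12 (r = 0.845), and Dbt was most like Aldh6a1 (r = 0.934), an enzyme of the valine branch, with Cdkn1b (r = 0.933) next. Slc7a5 was most like Plec (r = 0.847), Bckdha like Selenoh (r = 0.936), Bckdhb like Mrps18c (r = 0.801) and Bckdk like Cnpy3 (r = 0.91). The points of these correlations share library, depth and, in callosum, number format, and the values are a description. The mean residual log2 CPM of mature oligodendrocyte markers had r = 0.707 with Dbt and -0.489 with Slc7a5, and that of neuron markers had r = -0.407 with Dbt; their part in these likenesses was not tested.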

How the data were processed

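Gene-level estimated counts (expected counts, not whole numbers) were deposited for 20 libraries in 1 table, per the file headers, and 30.14% of its values above 0 were whole within 1e-06. The submitters' processing notes name mm10 as the build. No version, annotation or strand setting of the quantifier is given in the sources used here. Gene symbols matched 46005 of 46517 identifiers with the version removed.

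Counts were rounded to whole numbers, filtered with filterByExpr (minimum count 10, minimum total 15), scaled by TMM and tested with the quasi-likelihood test of edgeR 4.0.16 in R 4.3.3, with Benjamini-Hochberg adjustment over all genes tested and a threshold of 0.05. Genotype was tested within each tract, and tract and the difference of genotype effects in a fit of all 20 libraries. The 95% intervals come from the fitted standard errors. DESeq2 1.42.0, limma 3.58.1 (voom), other scalings and filters, covariates and leaving out each library were alternatives. Scripts were tested on simulated data. Levels per kilobase divide CPM by GENCODE M21 protein-coding transcript lengths.

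The members and all gene lists were chosen with earlier results of these data known. Genes named beside the members are Dld, Ppm1k, Slc3a2 and Slc25a44, from each pathway list up to 4 with the smallest p for genotype and up to 4 with the largest called tract difference in wild-type mice, and for each member up to 3 with the highest correlation. Precision is limited by 4 to 6 libraries a group, and no 2 libraries held identical values.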

Additional observations from a re-analysis of the deposited data

Results flagged for a closer look

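The Bcat1 level of WT_ON_700858, 91.7 CPM, was flagged as far from the rest of its group: its gap to the nearest of the other 3 libraries was 0.943 of the group's whole range. Without this library the log2 fold change of Bcat1 in KO_ON over WT_ON was -0.78, against -0.95 with it.

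The Dbt level of KO_CCg_29, 50.2 CPM, was flagged in the same way, with a gap of 0.702 of the group's range. KO_CCg_29 has a 2-character number, and both WT_CCg libraries with such numbers had Dbt at 49.1 and 50.4 CPM. In all 28 combinations of a gene and a group were checked, and chance flags about 1 in 20.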

How the results depend on the processing

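Over the alternatives, 532 of the values obtained by leaving out 1 library and 276 of the others kept their direction and their side of the threshold, 7 lost the threshold, 12 passed it and 27 turned sign. In callosum the 6 genes called between genotypes became 174 in DESeq2, 2786 in limma-voom, 41 in the fit of all 20 libraries, 10 with the number format as a covariate, 2 among the longer numbers and 0 among the 2-character numbers (984 at an unadjusted p under 0.05); leaving out each library gave 2 to 41. In optic nerve the 2 genes became 35 in DESeq2 and 1 without the numbers that hold a letter. The difference of the knockout effect called 0 to 1 genes when each library was left out.

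These values turned sign. Dbt in WT_ON over WT_CCg was -0.0358 with column totals and -0.0321 in limma-voom. In callosum Slc7a5 was 0.0116 in limma-voom, Bckdk was -0.017 and Dbt 0.084 with the neuron covariate, Dbt was 0.0222 with that and the number format, and Bcat1 was 0.0219 among the longer numbers. Bcat2 in optic nerve was -0.0215 without the letter numbers. The cause was not tested. Leaving out each library gave ranges across 0 for Bckdhb (-0.118 to 0.014) and Dbt (-0.107 to 0.104) in WT_ON over WT_CCg, for Bckdk in callosum (-0.0176 to 0.0921) and optic nerve (-0.00194 to 0.124), and for the difference of knockout effects of Bckdk (-0.0352 to 0.11), Dbt (-0.00377 to 0.231) and Slc7a5 (-0.122 to 0.035).

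Numbers occur in both tracts for 4 libraries a tract. All 4 numbers carry the same genotype in both tracts. The deviations of these libraries correlated at -0.223 to 0.222. For 1 of the 4 numbers, that of KO_ON_719856, the correlation was highest with its own number. Correlation across tracts cannot show whether equal numbers mark the same animal. An edgeR fit with a replicate block on those 8 libraries gave 1 tract value over both genotypes, as 1 of the 4 numbers is wild type. In it Bcat1 (-0.208, adjusted p = 0.429), Bckdha (0.325, adjusted p = 0.116) and Slc7a5 (0.185, adjusted p = 0.243) were not called. The count of genes called was 7464, against 10340 for KO_ON against KO_CCg in the main fit. The block as a random effect in limma-voom gave the Bcat1 difference of knockout effects as -0.784 (adjusted p = 0.847) and changed no member's call.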

Other observations

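Genes around the pathway were counted between tracts by edgeR's quasi-likelihood test, which called 31.9% of all genes higher and 31.0% lower in KO_ON than in KO_CCg, and 25.3% higher and 26.0% lower in WT_ON than in WT_CCg. Of 10 enzymes that make or use the glutamate of transamination, 8 fell and 0 rose in KO_ON relative to KO_CCg, and 7 fell and 0 rose in WT_ON relative to WT_CCg. Gad1 and Gad2, which make GABA in inhibitory neurons, fell by 4.58 and 4.27 on the log2 scale in WT_ON (adjusted p = 2.28e-05 and 7.41e-05), and Got1, the cytosolic aspartate aminotransferase, fell by 1.32 (adjusted p = 4.56e-04). Gad1 and Gad2 are also 2 of the 10 neuron markers, of which 10 fell in KO_ON and 9 in WT_ON.

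Of 13 genes of leucine sensing and mTORC1, 4 rose and 6 fell in KO_ON, and 4 rose and 5 fell in WT_ON. Castor1, an arginine sensor upstream of mTORC1, rose by 2.77 in WT_ON (SE 0.14, adjusted p = 4.5e-12), and Rragd, a GTPase that recruits mTORC1 to lysosomes, fell by 1.47 (SE 0.216, adjusted p = 9.85e-06). Of 12 genes of the amino acid response, 4 rose and 3 fell in KO_ON, and 2 rose and 3 fell in WT_ON. Slc7a11, the cystine and glutamate exchanger, rose by 2.46 in WT_ON (SE 0.154, adjusted p = 8.8e-11), and Asns, asparagine synthetase, fell by 2.45 (SE 0.341, adjusted p = 5.04e-06). Between genotypes edgeR called no gene of these 3 lists. The counts of the leucine sensing and amino acid response lists are read as values of these genes and do not set the lists apart from all genes. At an unadjusted p under 0.05, which 5.48% of all genes reached in optic nerve and 11.7% in callosum, the 3 lists held 3, 0 and 2 genes in optic nerve and 1, 1 and 3 genes in callosum, among them Gpt at 0.48 in optic nerve (SE 0.145, adjusted p = 0.845) and Ddit4 at -0.55 in callosum (SE 0.17, adjusted p = 0.319).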
